A study of Rattus norvegicus with 74 samples.

Results

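The microRNAs miR-143 and miR-145 of smooth muscle were followed across the life span of the F344 rat kidney. They were chosen by the names of the 2 miRNAs, every mature arm of both on the array was taken, and the arms detected on at least 1 array are the members. Of the 4 arms, rno-miR-143-3p and rno-miR-145-5p were detected on all 74 arrays, and the opposite arms, rno-miR-143-5p and rno-miR-145-3p, were detected on none. The members are thus 2 arms, out of 311 miRNAs detected on at least 1 array and 677 miRNAs on the array.

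Untreated F344 (Fischer) rats of both sexes were examined at 8 ages. The younger ages were 2, 5, 6 and 8 weeks and the older ones 15, 21, 78 and 104 weeks, and the 16 groups differed by label only in age and sex. Each array held RNA of the whole kidney of 1 animal, with 4 or 5 animals per group, 36 females and 38 males in all. The stage of the oestrous cycle was not synchronized in females, which limits what a female group can stand for. All rats came from 1 inbred strain.

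In vertebrates, miR-143 and miR-145 lie close together and are processed from one long primary transcript, whose host gene in the rat is annotated as Carmn. They are known for keeping smooth muscle cells of vessel walls in the contractile state, under the control of serum response factor and its cofactor myocardin. In kidney they are found mainly in arteries and arterioles and in cells related to smooth muscle, such as mesangial cells of the glomerulus and pericytes. Each of them recognises target messages through its own seed, the bases near the 5′ end that pair with the target.

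The 4 arms are shown here because the arms of the cluster differ in their seeds. They are given 5′ to 3′ from RefSeq for build GRCr8 of the rat genome, with the seed (bases 2 to 8) in capitals.
rno-miR-143-3p: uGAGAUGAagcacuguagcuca
rno-miR-143-5p: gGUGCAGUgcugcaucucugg
rno-miR-145-5p: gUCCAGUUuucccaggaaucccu
rno-miR-145-3p: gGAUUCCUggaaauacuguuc
The mature miR-143-3p has 22 bases and lies on the minus strand at chr18:57371373-57371394. The mature miR-145-5p has 23 bases and lies on the same strand at chr18:57370033-57370055. The hairpins Mir143 and Mir145 are separated by 1278 bases, with Mir143 first in the direction of transcription. Among 693 mature rat miRNAs listed, 0 others carry the seed of miR-143-3p and 0 others carry that of miR-145-5p, so neither has a seed relative among the listed miRNAs.

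Between 190 and 264 miRNAs were detected per array. The 75th percentile of the 311 expressed miRNAs, by which each array was divided, ranged from 81.2 to 283 intensity units. The arrays came from 10 slides, of which 4 held only ages of 2 to 8 weeks, 5 only ages of 15 to 104 weeks, and 1 both, through a single array of a 15-week female. Differences between a younger and an older age therefore coincide with a change of slides, and slide and age can be separated there only through that array. With 4 or 5 arrays per group, the number of arrays limits the precision of each mean. In what follows, a level is the total signal of a miRNA over the 75th percentile of its array, called the normalized signal. Levels of the 2 miRNAs are not set against each other, since they were read by different probes.

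The deposit assigned arrays to animals in 2 ways that conflict. Each of the 74 columns of the authors' normalized table matched the scanner output of a single array, but for 69 of them that array was filed under another animal, and in only 8 of 74 did both assignments give the same age and sex. Which of them is right cannot be told from the deposit itself. The male to female ratios that the paper prints for miR-204 and miR-223, however, follow the scanner-file labels. At every age, the group means by those labels gave the printed ratio after rounding. For rno-miR-204-5p at 21 weeks, the means were 0.832 in males and 0.410 in females. The age and sex of an array were taken from the label of its own scanner file, and every value by group depends on that choice. With the arrays assigned as in the table, miR-143-3p was again called in neither sex, with a widest difference between ages of 0.42 in females and 0.16 in males on the log2 scale. The miR-145-5p age effect in females, called below, was then not called.

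The miR-143-3p signal was strong on every array. Its total signal was 713 to 3063 intensity units, with a median of 1592, and the error given by the scanner software was 8.39% to 8.73% of the signal. Its normalized signal had a median of 10.1 and ranged from 7.02 to 12.6 over all 74 arrays, a ratio of 1.79 between the highest and the lowest animal. The miR-145-5p signal was faint, though detected on every array. Its total signal was 3.95 to 27.9 intensity units, with a median of 11.7, and the error was 10.01% to 32.9% of the signal. The normalized signal of miR-145-5p ranged from 0.0319 to 0.252, a ratio of 7.92 between the highest and the lowest animal. Within groups, the SD on the log2 scale was 0.13 for miR-143-3p and 0.57 for miR-145-5p, against a median of 0.17 over the 166 miRNAs detected on all arrays. Of those 166, 26 varied less than miR-143-3p within groups and 157 varied less than miR-145-5p.

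Each miRNA was read by a pair of probes with 10 spots per probe. For miR-143-3p, both probes entered the total on all 74 arrays. For miR-145-5p, the dimmer probe entered the total on 37 arrays and was left out on the other 37. Its signal was at least 3.05 times its error on every array where it was added, and at most 2.94 times its error on every array where it was not, so a limit of 3 separated them. Where it was added, it made up a median of 30.1% of the total. Arrays of 21-week females had it added in 4 of 4 cases, those of 2- and 5-week females in 3 of 4 each, and those of 8- and 78-week females in none. In males, it was added on 4 of 5 arrays at 5 weeks and at 21 weeks and on 1 of 5 arrays at 78 weeks. This step in the measurement moved with the groups, and so the brighter probe of miR-145-5p is given beside the total for the age effect in females and for the pairs of ages called.

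Group means of kidney miR-143-3p differed by a ratio of at most 1.32, from 8.73 ± 1.21 (SD, n = 5) in 78-week males to 11.5 ± 0.84 (SD, n = 4) in 2-week females. In females, the 2-week animals had normalized miR-143-3p signals of 10.8, 10.9, 11.8 and 12.6. The 5-week females had 9.68, 10.5, 11.5 and 11.5. Those of 6 weeks had 8.60, 8.70, 9.09, 9.67 and 9.85. Every 2-week female was thus above every 6-week female, whereas the 5- and 6-week females overlapped slightly. The 8-week females had 9.15, 10.8, 10.9 and 11.3, and the 15-week females 7.90, 9.40, 9.53, 9.78 and 11.1. At 21 weeks the female values were 10.3, 10.9, 11.1 and 11.2, the tightest of the female groups. At 78 weeks they spread over 7.61, 8.58, 9.31, 9.61 and 10.8, and at 104 weeks over 9.31, 9.77, 10.2, 10.5 and 11.5. The 78-week females included the lowest female of all, and 1 of the 5 was within the range of the 2-week females.

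In males, the 2-week animals had normalized miR-143-3p signals of 10.01, 10.3, 10.9, 11.4 and 11.6. The 5-week males had 8.97, 10.01, 10.5, 10.6 and 11, and the 6-week males 9.12, 9.72, 10.03, 10.8 and 11.4. These 3 youngest male groups overlapped broadly. The 8-week males had 8.90, 10.2, 10.3 and 10.6, and the 15-week males 8.58, 8.95, 9.36, 9.60 and 10.5. At 21 weeks the males were again tightly grouped, at 9.81, 9.88, 10.1, 10.2 and 10.8. Males of 78 weeks had 7.02, 8.26, 8.84, 9.28 and 10.3, and those of 104 weeks 8.82, 9.12, 10.9 and 11.3. The lowest animal of the whole series was a 78-week male, and 4 of the 5 males of that age were below all 21-week males.

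**Figure D1:**
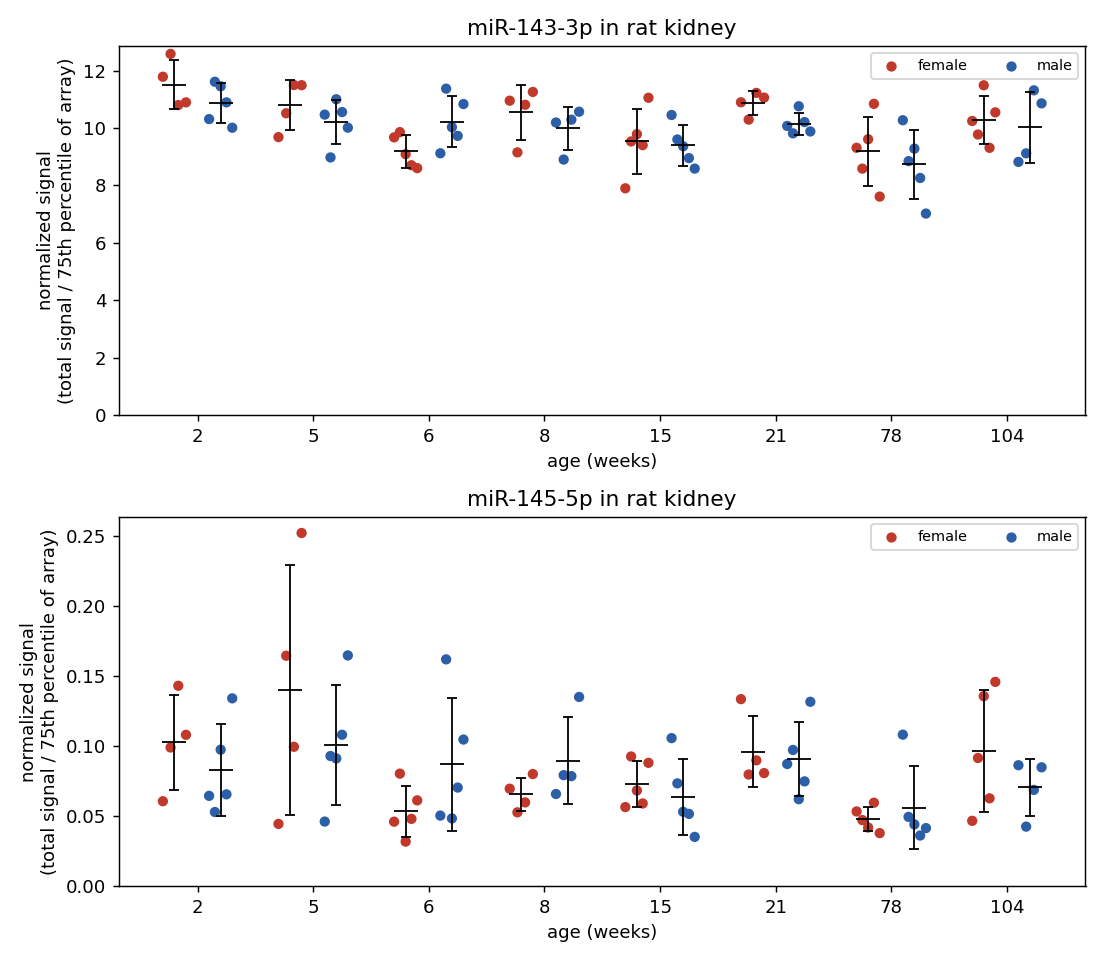
Normalized signal (total signal over the 75th percentile of the array) of miR-143-3p (top) and miR-145-5p (bottom) by age in weeks, 1 point per animal, females in red and males in blue, with the group mean and SD in black. All miR-143-3p values lie between 7.02 and 12.6, whereas miR-145-5p spreads from 0.0319 to 0.252, with the widest spread in 5-week females.

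Age was tested within each sex over the 8 ages, and an age effect was called where the adjusted p was under 0.05 and a pair of ages differed by at least 1.5-fold. By that rule 114 of the 311 miRNAs (36.7%) were called in females and 141 (45.3%) in males, and miR-143-3p was called in neither sex. The moderated F test of miR-143-3p passed the threshold in both sexes (limma adjusted p = 0.00924 in females and 0.0404 in males). Its widest difference between ages, however, was 1.26-fold in females and 1.25-fold in males, both between 78 and 2 weeks. Under quantile normalization the widest female difference was 0.63 on the log2 scale and was called, and under normexp background correction it was 0.81 and was not called (limma adjusted p = 0.73). With slide as a block, in a joint fit of both sexes, the test passed in females (limma adjusted p = 0.00122) but not in males (0.128). On leaving out single arrays, without that block, the male adjusted p reached 0.133. On the log2 scale those widest differences were 0.33 and 0.32. The median over the 311 miRNAs was 0.69 in females and 0.76 in males, and 75 and 59 of the 311 had a narrower range than miR-143-3p. Of the 166 miRNAs detected on all arrays, 22 in females and 8 in males had a narrower range.

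The order of miR-143-3p levels, taken from the mean log2 values, ran from 2 weeks down through 21, 5, 8, 104, 15 and 6 to 78 weeks in females. In males it ran from 2 weeks down through 6, 5, 21, 104, 8 and 15 to 78 weeks. Both sexes thus had the highest mean log2 value at 2 weeks and the lowest at 78 weeks. In females the 6-week mean was nearly the same, and without log2 it was the lower, at 9.182 against 9.189. Neighbours in this order are close by construction, since the same means set it. Their steps were at most 0.11 on the log2 scale, and none passed the threshold (lowest limma adjusted p = 0.44 in females and 0.402 in males). Over the 28 pairs of ages, 0 pairs were called for miR-143-3p in each sex, because none reached 1.5-fold, while 4 pairs in each sex had an adjusted p under 0.05. Over all miRNAs and pairs, 10.3% were called in females and 13.4% in males.

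Those 4 pairs in females were 78 against 2 weeks, 6 against 2 weeks, 15 against 2 weeks and 78 against 21 weeks. The difference from 2 to 78 weeks was -0.33 ± 0.09 (SE; limma adjusted p = 0.0058). In males, all 4 pairs involved 78 weeks, against 2, 5, 6 and 21 weeks. The difference from 2 to 78 weeks was -0.32 ± 0.08 (SE; limma adjusted p = 0.00297), and that from 21 to 78 weeks was -0.23 ± 0.08 (SE; limma adjusted p = 0.0416). From 78 to 104 weeks the miR-143-3p mean was higher by 0.17 in females and 0.20 in males on the log2 scale, and neither step passed the threshold (limma adjusted p = 0.189 and 0.0962). The difference between 2 and 78 weeks kept its sign in males under each scaling tried, but shrank to -0.08 when the 75th percentile was taken over all miRNAs of the array. In females it was -0.28 under that scaling and turned to 0.19 under normexp background correction. In males, the difference of 78 minus 21 weeks turned to 0.05 with the percentile over miRNAs detected on all arrays, and that of 78 minus 5 weeks turned to 0.0029 with the percentile over all miRNAs.

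The miR-145-5p level was far more variable, both between animals of a group and between ages. The 2-week females had normalized miR-145-5p signals of 0.0608, 0.0991, 0.108 and 0.143. The 5-week females had 0.0445, 0.0997, 0.165 and 0.252, which span the highest animal of the series and one of the lower ones. Females of 6 weeks had 0.0319, 0.0461, 0.0481, 0.0614 and 0.0805. Thus 3 of the 4 females at 5 weeks were above all 5 females at 6 weeks, and the fourth was within their range. The 8-week females had 0.0528, 0.0599, 0.0697 and 0.0802, and those of 15 weeks had 0.0566, 0.0591, 0.0684, 0.0882 and 0.0927. At 21 weeks the female values were 0.0798, 0.0808, 0.0899 and 0.134. Females of 78 weeks had 0.0379, 0.0420, 0.0473, 0.0534 and 0.0597, and those of 104 weeks had 0.0467, 0.0628, 0.0917, 0.136 and 0.146. All 5 females at 78 weeks were below all 2-week and all 21-week females, whereas the 104-week females overlapped those of 78 weeks.

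The 2-week males had normalized miR-145-5p signals of 0.0530, 0.0646, 0.0657, 0.0976 and 0.134, and the 5-week males 0.0462, 0.0913, 0.0930, 0.108 and 0.165. Males of 6 weeks had 0.0485, 0.0505, 0.0705, 0.105 and 0.162, and those of 8 weeks had 0.0659, 0.0787, 0.0794 and 0.135. The 4 younger male groups overlapped one another. The 15-week males had 0.0353, 0.0517, 0.0532, 0.0735 and 0.106, and the 21-week males 0.0622, 0.0749, 0.0874, 0.0974 and 0.132. Males of 78 weeks had 0.0362, 0.0415, 0.0442, 0.0496 and 0.108, and those of 104 weeks had 0.0426, 0.0689, 0.0850 and 0.0865. At 78 weeks, 4 of the 5 males were below all 21-week males and 1 male stood far above the other 4.

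In females, miR-145-5p changed with age when arrays were taken by the labels of their scanner files. Its group mean ranged from 0.0481 ± 0.0087 (SD, n = 5) at 78 weeks to 0.140 ± 0.0894 (SD, n = 4) at 5 weeks. The age effect was called, with a widest difference of 1.30 on the log2 scale, or 2.46-fold, and a limma adjusted p of 0.0252. The median widest difference over the 311 miRNAs was 0.69 in females, and 245 of them had a narrower one. With the arrays assigned as in the deposited table, the widest difference was 0.98, the call was lost (limma adjusted p = 0.0884) and 0 pairs were called. When the brighter probe was used alone on every array, the widest difference was 0.92 and the call was lost (limma adjusted p = 0.0551). When both probes were added on every array, it was 1.08 and the call was made (limma adjusted p = 0.0287). Leaving out 1 female of 5 weeks (replicate 3) or 1 of 78 weeks (replicate 6) took the adjusted p just past the threshold, to 0.052 and 0.0506.

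Because the younger and older ages lie on different slides, age was also tested within each set of ages. Without a slide term, the female miR-145-5p age effect was not called among ages of 2 to 8 weeks (limma adjusted p = 0.159) or 15 to 104 weeks (0.0676). With slide as a block within each set, in a joint fit of both sexes, it was called in both (limma adjusted p = 0.0288 and 0.0194), with widest differences of 1.19 and 1.10. The fits without a slide term took females alone, so the slide term and the joint fit cannot be told apart in this change. Over all ages with slide as a block, again in a joint fit, the age effect was also called (limma adjusted p = 0.00203). So it was with the brighter probe alone under that block (0.00619). With the brighter probe alone and slide as a block within each set, it was called among ages of 2 to 8 weeks (limma adjusted p = 0.039, widest difference 0.87) and not among those of 15 to 104 weeks (0.0517, 0.61).

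Of the 28 pairs of ages, 3 were called for miR-145-5p in females, which is 3 of 28 against 10.3% over all miRNAs and pairs. The level fell from 5 to 6 weeks by 1.19 ± 0.37 on the log2 scale (SE; limma adjusted p = 0.0196). It was lower at 78 than at 5 weeks by 1.30 ± 0.37 (difference 78 minus 5 weeks -1.30, SE 0.37; limma adjusted p = 0.0102), and the difference of 78 minus 2 weeks was -1.05 ± 0.37 (SE; limma adjusted p = 0.0428). The 5-week females lay on 4 slides and the 6-week females on 5, which included those 4. The call between these groups held with slide as a block in the joint fit of both sexes (limma adjusted p = 0.00627). It also held with the brighter probe alone, where the difference was -0.90 (limma adjusted p = 0.0186). It was lost without 5-week replicate 3 (adjusted p = 0.0788), without 5-week replicate 6 (0.133) and without 6-week replicate 3 (0.0626).

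Both pairs that joined 78 weeks to a younger age lost their call with slide as a block in the joint fit of both sexes. Their differences were then -0.90 against 5 weeks (limma adjusted p = 0.505) and -0.65 against 2 weeks (0.697). With the brighter probe alone, the difference between 78 and 5 weeks was -0.92 and kept its call (limma adjusted p = 0.0161), and that between 78 and 2 weeks was -0.66 and lost it (0.103). Without 5-week replicate 6, the animal with the highest miR-145-5p level, the difference between 78 and 5 weeks was -0.93 and was not called (limma adjusted p = 0.0797). The call between 78 and 2 weeks was lost on leaving out any of 3 of the 4 females of 2 weeks (replicates 4, 5 and 6) or any of 4 of the 5 of 78 weeks (replicates 1, 3, 4 and 6), with limma adjusted p up to 0.147. The signs of all 3 called differences were the same under every scaling tried. With the arrays assigned as in the deposited table, that of 78 minus 2 weeks turned to 0.32, and those of 6 minus 5 and 78 minus 5 weeks were -0.07 and -0.52, none of them called.

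In males, the age effect of miR-145-5p was not called. Its group mean ranged from 0.056 ± 0.0297 (SD, n = 5) at 78 weeks to 0.101 ± 0.0427 (SD, n = 5) at 5 weeks. The widest difference was 0.86 on the log2 scale, or 1.81-fold, with a limma adjusted p of 0.371, and 0 of 28 pairs of ages were called against 13.4% over all miRNAs and pairs. The unadjusted p was under 0.05 for 2 of those pairs, 78 against 5 weeks (-0.86 ± 0.36, SE) and 78 against 21 weeks (-0.77 ± 0.36, SE). Without the high 78-week male (replicate 2), 2 pairs were called, and without 1 of the 5-week males (replicate 1), 1 pair was. With slide as a block within ages of 15 to 104 weeks, in a joint fit of both sexes, 1 pair was called. It was 78 against 21 weeks, at a limma adjusted p of 0.04. The age profiles of the sexes were not shown to differ by these separate tests, and the interaction is given further on.

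The order of mean log2 levels of miR-145-5p in females ran from 5 weeks down through 2, 21, 104, 15, 8 and 6 to 78 weeks. In males it ran from 5 weeks down through 21, 8, 2, 6, 104 and 15 to 78 weeks. Neighbours, again close by construction, had steps of up to 0.34 in females and 0.22 in males on the log2 scale. None of these steps passed the threshold (lowest limma adjusted p = 0.666 and 0.859). The mean log2 level at 78 weeks was the lowest in both sexes, as it was for miR-143-3p, where the 6-week females were nearly as low. The mean at 104 weeks was higher than at 78 weeks by 0.89 in females and 0.41 in males on the log2 scale, without passing the threshold in either (limma adjusted p = 0.0723 and 0.578), and the difference turned to -0.03 and -0.16 under normexp. In these whole-kidney samples, fewer smooth muscle cells and less of the miRNA per cell cannot be told apart.

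**Figure D2:**
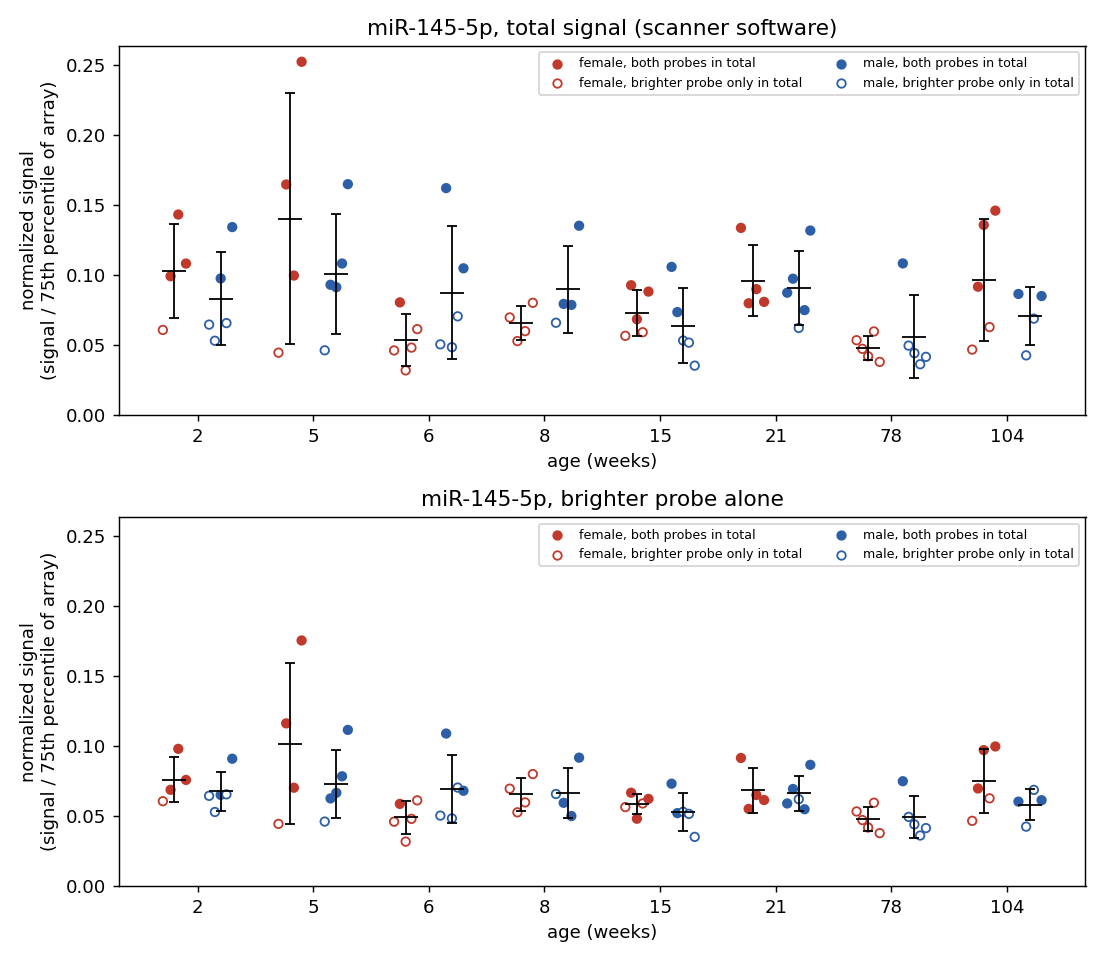
Normalized miR-145-5p signal by age in weeks for each animal, with group mean and SD: the total signal given by the scanner software (top) and the brighter probe alone (bottom). Filled points mark the 37 arrays on which the dimmer probe was added to the total and open points the 37 on which it was not. The female mean at 5 weeks is 0.140 in the total and 0.102 with the brighter probe alone, and that at 78 weeks is 0.0481 in both.

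The brighter probe alone gave group means of miR-145-5p from 0.0481 ± 0.0087 (SD, n = 5) in 78-week females to 0.102 ± 0.0575 (SD, n = 4) in 5-week females. At 78 weeks the males had a mean of 0.0493 ± 0.0152 (SD, n = 5) on that probe, and all other male groups had means between 0.0531 and 0.0732. The 2 probes of miR-145-5p varied together between animals of a group. The correlation of their deviations from the group means was r = 0.849 (rho = 0.787, permutation p = 1e-05 for each, the smallest that 100000 permutations can give, n = 74 arrays). For the probes of miR-143-3p, r was 0.784 and rho 0.791, with the same p. Probes of 1 array share its scaling, which adds to these values. On arrays where the dimmer probe was added, the brighter probe had a median normalized signal of 0.0689, against 0.0528 on the other arrays. The 75th percentile of the array had a median of 176.8 on the former and 145.5 on the latter.

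The question of sex was asked at each age as the difference of males minus females. Neither member was called at any of the 8 ages, whereas 3.86% of the 311 miRNAs were called in the 2-week, 0% in the 5-week, 0.322% in the 6-week, 1.29% in the 8-week, 3.54% in the 15-week, 4.82% in the 21-week, 6.75% in the 78-week and 6.11% in the 104-week comparison. For both miRNAs, male and female values overlapped at each of the 8 ages. With limma, 0 of the 8 differences of either miRNA had an unadjusted p under 0.05.

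For miR-143-3p, the differences were between -0.10 and 0.15 on the log2 scale. Males were lower than females at 7 of the 8 ages and higher at 6 weeks, when the difference was 0.15 ± 0.08 (SE; limma adjusted p = 0.774). The 95% intervals of all 8 lay between -0.27 and 0.32 on the log2 scale, so that a sex difference of more than 1.25-fold in either direction was outside the interval at each age. For miR-145-5p, the differences were between -0.37 at 104 weeks and 0.61 at 6 weeks. The difference at 6 weeks had an SE of 0.36 and a limma adjusted p of 0.774. The intervals of miR-145-5p reached from -1.13 to 1.32 on the log2 scale. Differences of up to 2.50-fold in favour of males, at 6 weeks, and 2.18-fold in favour of females, at 104 weeks, thus lay within them.

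**Figure D3:**
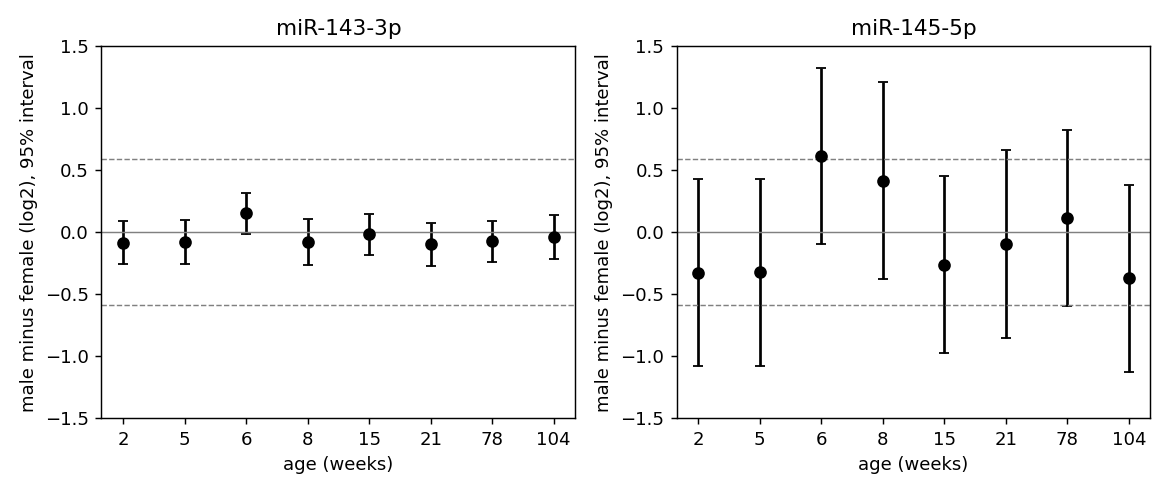
Difference of males minus females in log2 normalized signal at each age in weeks, with its 95% interval from limma, for miR-143-3p (left) and miR-145-5p (right) on the same scale. Dashed lines mark a 1.5-fold difference. The intervals of miR-143-3p stay within -0.27 and 0.32, and those of miR-145-5p reach from -1.13 to 1.32.

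The interaction of age and sex asked whether the age profile differed between the sexes, and 86 of the 311 miRNAs (27.7%) passed its test. Neither member did (limma adjusted p = 0.684 for miR-143-3p and 0.639 for miR-145-5p). The call of the miR-145-5p age effect in females alone is therefore not a shown difference from males.

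Since both miRNAs are cut from one transcript, their levels were compared on the same array. The log2 difference of miR-143-3p minus miR-145-5p does not depend on the divisor of the array, and only its change between groups can be read. In females its mean was lowest at 5 weeks (6.53) and highest at 78 weeks (7.59), a range of 1.06, and the test over ages missed the threshold (permutation p = 0.0529, 100000 permutations, n = 36). The divisor cancels in this difference, but the adding of the dimmer miR-145-5p probe does not. In females that probe was added on 3 of 4 arrays at 5 weeks and on 0 of 5 at 78 weeks. With the brighter probe alone, the range in females was 0.68. In males the mean log2 difference ranged over 0.63, also from 5 weeks (6.77) to 78 weeks (7.4), with a permutation p of 0.552 (n = 38). Between the sexes, exact two-sided permutation tests at the 8 ages gave no adjusted p under 0.457, and the largest difference was -0.49 for males minus females at 8 weeks (exact p = 0.0571).

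Across the 16 groups of age and sex, the means of both miRNAs moved in parallel. The Pearson correlation of their mean log2 levels was 0.82 (rho 0.791), and it is a description, since both means come from the same arrays and share their scaling. It was 0.843 over the 8 female groups and 0.809 over the 8 male groups, where rho was 0.571. It was 0.677 (rho 0.5) over the groups of 2 to 8 weeks and 0.913 over those of 15 to 104 weeks. Without the 2-week groups it was 0.846, and with the brighter probe of miR-145-5p it was 0.864. The other percentile scalings gave 0.7 (all miRNAs) and 0.674 (miRNAs detected on all arrays), and quantile normalization gave 0.643. Under normexp, which adds an offset of 50 to the signal of each spot, the correlation was -0.49. The part of the offset in that value was not tested.

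**Figure D4:**
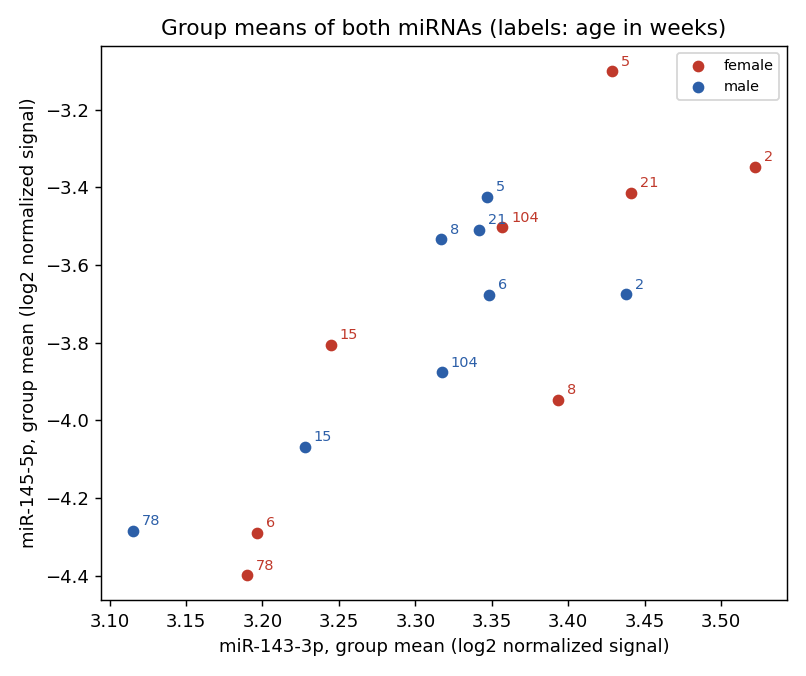
Mean log2 normalized signal of miR-143-3p (horizontal) and miR-145-5p (vertical) in the 16 groups, females in red and males in blue, each labelled with its age in weeks. Both 78-week groups and the 6-week females lie at the lower left, and the 2-, 5- and 21-week females at the upper right (r = 0.82).

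Among the other 165 miRNAs detected on all arrays, the one most like miR-143-3p over the 16 group means was miR-145-5p (r = 0.82), and the one most like miR-145-5p was miR-143-3p. Next for miR-143-3p came rno-miR-152-3p (r = 0.723) and rno-miR-322-3p (r = 0.665). Both of these had their highest level at 2 weeks, where rno-miR-152-3p had a mean normalized signal of 0.745 in females, against 0.427 at 78 weeks. Next for miR-145-5p came rno-miR-24-3p (r = 0.691) and rno-miR-326-3p (r = 0.623). With the brighter probe of miR-145-5p, miR-143-3p again ranked 1 of 165.

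Between animals of the same group, the pair was less closely tied. The deviations of miR-143-3p and miR-145-5p from their group means correlated at r = 0.398 (permutation p = 0.00127, adjusted 0.00299 over 11 relations computed) and rho = 0.39 (permutation p = 0.00242, adjusted 0.00532), n = 74. Without the 2 arrays farthest from the median of miR-143-3p, r was 0.39, and over all 74 without scaling it was 0.693. Both miRNAs of an array share its slide and scaling, which the permutations within groups did not take into account. Within ages of 15 to 104 weeks r was 0.522 (permutation p = 0.00175, n = 38), and within ages of 2 to 8 weeks it was 0.288 (permutation p = 0.135, n = 36). It was thus positive in both sets but did not pass the threshold within the younger one, and the difference between the sets was not tested. By this measure miR-145-5p ranked only 35 of 165 for miR-143-3p, behind rno-miR-27b-3p (r = 0.769), rno-miR-203a-3p (r = 0.632) and rno-miR-24-3p (r = 0.618) at the top. For miR-145-5p the top 3 were rno-miR-374-5p (r = 0.723), rno-miR-99b-5p (r = 0.706) and rno-miR-26a-5p (r = 0.655), and miR-143-3p ranked 22.

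Beside the counts of marker miRNAs of other kidney cell types stand the shares over all 311 miRNAs, which were 36.7% with an age effect called in females, 45.3% in males and 17.4% with a sex difference called at any of the 8 ages. Of the mesenchymal list, the 3 of 4 detected arms (rno-miR-199a-3p, rno-miR-199a-5p and rno-miR-214-3p, found in fibroblasts and other mesenchyme) all had an age effect called in both sexes. Their summed normalized signal at 2 weeks reached 16.6 ± 1.15 in the females (SD, n = 4) and 19.3 ± 0.85 in the males (SD, n = 5), and lay between 8.11 and 11.9 in all later groups. The endothelial pair rno-miR-126a-3p and rno-miR-126a-5p had an age effect called in 0 of 2 in either sex, and its sum ranged from 12.8 in 104-week males to 19.5 in 2-week females. The sums are carried by their brightest members, and single members differed from them. The endothelial rno-miR-126a-5p had its lowest mean at 78 weeks in both sexes, at 0.336 in females and 0.370 in males, and rno-miR-199a-5p in females, at 1.26. The sums of the mesenchymal list at 5 and 6 weeks in females were 9.77 ± 0.47 (SD, n = 4) and 9.81 ± 1.004 (SD, n = 5). Those of the endothelial pair were 15.3 ± 1.34 and 14.9 ± 1.73. The part of either cell type in the called miR-145-5p difference between these ages was not tested.

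Leukocyte markers (rno-miR-142-3p, rno-miR-142-5p, rno-miR-150-5p and rno-miR-223-3p) had an age effect called in 2 of 4 in females and 4 of 4 in males, and a sex difference called at some age in 4 of 4. Their sum was lowest in 2-week males, at 1.76, and highest in 104-week males, at 6.51. In the smooth muscle list, which is the members, 1 of the 2 detected arms had an age effect called in females and 0 of 2 in males, and 0 of 2 had a sex difference called. The lists for renal tubule (3 of 3 called in each sex), epithelium (2 of 5 in females and 1 of 5 in males) and erythroid cells (1 of 2 in each sex) held miRNAs with an age effect. Of the 7 striated muscle miRNAs, 4 were detected on no array, among them rno-miR-1-3p and rno-miR-133a-3p, while of the 3 detected ones 1 in females and 3 in males had an age effect called. The part of any of these cell types in the levels of miR-143-3p and miR-145-5p was not tested.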

How the data were processed

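The authors hybridized total RNA of 74 rat kidneys to single-colour Agilent rat miRNA arrays, 1 animal per array. The deposited values are intensities: Agilent Feature Extraction (version 10.7.3.1) subtracted background and combined 20 spots of a miRNA into its total gene signal, without normalization between arrays, setting miRNAs that were not detected to 0.1. The authors' normalized table was not used for values, since only 5 of its 74 columns equalled the scanner output of the array they name and 69 equalled that of another animal. Arrays were assigned by the label of their scanner file, and assignment by the table was an alternative: over the 311 miRNAs it called an age effect in 117 in females and 66 in males, against 114 and 141.

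For scaling, the 75th percentile over the 311 expressed miRNAs of an array served as divisor, values under a floor of 0.0171 were raised to it (0 member values were), and log2 was taken. Age within sex, pairs of ages, sex at each age and the interaction were fitted to all 311 miRNAs (limma 3.58.1, R 4.3.3). With slide as a fixed block, the age contrasts of each sex came from a joint fit of both sexes, otherwise from a fit of that sex alone. P-values were adjusted by Benjamini-Hochberg over the 311 miRNAs, and for pairs over all 28 pairs and miRNAs together (8708 tests). Calls needed an adjusted p under 0.05 and 1.5-fold, except for the interaction. Slide correlation for a random block was 0.13 in the joint fit (statmod 1.5.0). The fits were tested on simulated data. Permutation tests used 100000 permutations or all arrangements.

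Members and lists were chosen with earlier results of these data known. The miRNAs named beside the members were the 3 most correlated with each member over group means and the 3 most correlated over deviations. Marker miRNAs came from fixed lists, of which miR-486 of the erythroid list was not counted. The tests by probe, the slide blocks within sets of ages and the assignment by the table were chosen after seeing the data. Animals were not paired by their replicate numbers: over 423 pairs of arrays from different groups with the same number, the median correlation of deviations was -0.00831.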

Additional observations from a re-analysis of the deposited data

Results flagged for a closer look

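Each of the 32 groups of miRNA, age and sex was checked for an animal that stood apart from the others of its group, which chance alone gives in about 1 of 20 groups. It was found in 1 group: among the 78-week males, replicate 2 had a normalized miR-145-5p signal of 0.108, against 0.0496 for the nearest of the other 4 and 0.0362 for the lowest. The gap made up 0.815 of the whole range of the 5 animals. The dimmer probe was added to the total on that array and on none of the other 4. With the brighter probe alone, the highest of the 5 values was 0.075 and the lowest 0.0362.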

How the results depend on the processing

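Under every one of 27 alternatives that applied, sex differences stayed at 0 ages called for each miRNA and for their log2 difference, and the interactions were not called. For miR-143-3p, dropping the fold threshold called the age effect in females (0.33) and males (0.32) and 4 pairs in each sex. Quantile normalization called it in females, with a widest difference of 0.63 and 1 pair. Its difference between the sexes at 6 weeks turned to -0.0021 under normexp and to -0.0176 with arrays assigned as in the deposited table. The female age effect of miR-145-5p was lost under normexp (0.36), with ages of 2 to 8 weeks (1.19) or 15 to 104 weeks (0.98) alone, with the brighter probe (0.92), with that probe and a slide block within 15 to 104 weeks (0.61), and with arrays assigned as in the table (0.98), which turned its difference of 78 minus 2 weeks to 0.32. With the replicate number as a block it was 1.21 and lost its call (adjusted p = 0.0779), with 1 pair called, although these numbers do not pair the animals: 11 of 74 arrays correlated best with their own number. Its 3 called pairs became 5 with the percentile over miRNAs detected on all arrays and with quantile normalization, 6 with all miRNAs tested or slide as a random block, 1 with a slide block within 2 to 8 weeks or, with the brighter probe, within either set, and 0 under normexp, with either set of ages alone or with arrays assigned as in the table. In males 1 pair was called with the slide block within 15 to 104 weeks. The test of the log2 difference between the miRNAs in females passed with quantile normalization (1.10, p = 0.00918), ages of 15 to 104 weeks (0.73, p = 0.0369) and the dimmer probe of miR-143-3p (1.24, p = 0.0146), each a permutation p. In 11 of 14 settings its result was unchanged, and its lowest range was 0.68, with the brighter probe of miR-145-5p. The correlation of deviations was 0.288 within 2 to 8 weeks and turned to -0.547 under normexp, whose offset exceeds the signal of miR-145-5p. Causes of these changes, the offset among them, were not tested.

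Leaving out each of the 74 arrays in turn, the female age effect of miR-145-5p ranged from 1.05 to 1.76, and its called pairs from 2 to 9 in females (9 without 5-week replicate 2 and 6 without 104-week replicate 1) and from 0 to 2 in males. The female range of the log2 difference between the miRNAs was 0.733 to 1.47, and its test passed without 104-week replicate 1, 2-week replicate 3, 5-week replicate 2 or 6-week replicate 2. The dim signal of miR-145-5p, with an error of up to 32.9%, limits every statement on it.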
